A study of Mus musculus with 8 samples.

Results

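The T cell receptors of CD8 and CD4 T cells from mouse ependymomas were compared by the V and J gene segments that their alpha and beta chains use and by the length of CDR3, the loop formed where the segments are joined. Cells were taken from 3 T cell receptor (TCR) libraries, labelled vehicle IgG 1, mavrilimumab 1 and mavrilimumab 2, and each library was joined by droplet barcode to the expression library with which it shared most barcodes. A cell was kept if it held exactly 1 productive alpha chain and 1 productive beta chain. It was read as CD8 if Cd8a and Cd8b1 together had at least 2 unique molecular identifiers (UMIs, counts of single RNA molecules) and Cd4 had none, and as CD4 if Cd4 had at least 1 UMI and Cd8a and Cd8b1 had none. Of 8601 T cell barcodes, 6121 had the required pair of chains and 4673 received a lineage, 2942 as CD8 and 1731 as CD4. Each clonotype, defined by the V, J and CDR3 nucleotides of both chains, was counted once per library, which left 3138 clonotypes, 1884 CD8 and 1254 CD4.

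All mice were of genotype NestinCreERT2;Fus1;RFPTdT, in which a Cre recombinase driven by the neural progenitor promoter Nestin switches on the ZFTA-RELA fusion, and so the controls carried the tumour as well. At 3 weeks of age they were allotted at random to mavrilimumab, which blocks the receptor of the cytokine GM-CSF, or to a control antibody (vehicle IgG). The dose was 5 mg per kg, injected once into the cerebrospinal fluid, and brains were taken at 6 to 8 weeks of age. The figure legends of the study describe the single-cell data of vehicle and mavrilimumab tumours as taken at recurrence or at endpoint. How that stage relates to the stated age was not resolved here. Dissociated cells were stained for the leukocyte marker CD45 and the erythroid marker Ter119 and sorted. The study describes the experiments as pooled tumours of a group, how many mice each library holds is not given in the sources used here, and a TCR library of vehicle IgG 2 was not used here.

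Each alpha chain is assembled from a TRAV and a TRAJ segment and each beta chain from a TRBV, a TRBD and a TRBJ segment, and nucleotides are trimmed or added at the joints. V segments encode the CDR1 and CDR2 loops, which mostly lie over the helices of the MHC molecule, whereas CDR3 mostly contacts the peptide. CD8 T cells recognise peptides on MHC class I and CD4 T cells on MHC class II, and thymocytes with receptors for either class are directed into the matching lineage.

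The 3 TCR libraries differed widely in size. Vehicle IgG 1 gave 50 CD8 and 75 CD4 clonotypes, mavrilimumab 1 gave 1112 and 303, and mavrilimumab 2 gave 722 and 876. The joins rested on shared barcodes: 187 of 193 T cell barcodes of vehicle IgG 1 were found in the expression library of that title, 2645 of 2749 of mavrilimumab 1 in the expression library titled mavrilimumab 2, and 5035 of 5659 of mavrilimumab 2 in that titled mavrilimumab 1, with at most 66 in any other. The sample names written inside the 3 TCR files name the opposite treatment to their labels, and treatments were therefore not compared. The TCR libraries shared at most 3 T cell barcodes with one another. However, 8 receptors identical in the nucleotides of both chains were present in both vehicle IgG 1 (10 of 147 paired cells) and mavrilimumab 2 (107 of 4017), 5 of them in CD8 and 3 in CD4 cells, and none was shared with mavrilimumab 1. Results are therefore also given without vehicle IgG 1.

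The lineages were chosen on Cd8a, Cd8b1 and Cd4, whose levels are thus no finding. Genes outside that rule followed the names. Summed over Runx3, Nkg7 and Ccl5, cells read as CD8 had 4370 to 8559 CPM (UMIs scaled to a common library total) and cells read as CD4 had 841 to 1254, whereas Zbtb7b, Cd40lg, Izumo1r and Foxp3 summed to 11.6 to 23.3 CPM in CD8 and 407 to 624 in CD4. Foxp3, the transcription factor of regulatory T cells, was seen in 10, 40 and 293 CD4 cells of vehicle IgG 1, mavrilimumab 1 and mavrilimumab 2. Just inside the limits lay 86 CD8 cells with exactly 2 UMIs and 700 CD4 cells with exactly 1, of which 616 came from mavrilimumab 2. Just outside lay 155 cells with 1 CD8 UMI and no Cd4, a further 1134 with neither co-receptor and 159 positive for both. CD8 cells were deeper than CD4 cells in every library, with a median of 15740.5 against 11744 UMIs in vehicle IgG 1, 13201 against 8429.5 in mavrilimumab 1 and 4451 against 3398.5 in mavrilimumab 2. T cell genes summed to 2761 to 3649 CPM. Myeloid genes (C1qa, Csf1r, Lyz2, Itgam) summed to 45.3 to 261 CPM in CD8 and 73.4 to 288 in CD4, natural killer genes (Ncr1, Klrb1c) to at most 94.4, gamma-delta T cell genes to at most 15.3 and neural genes to at most 4.0. Vehicle IgG 1 had no UMI of Ncr1 in either lineage. The part of depth and of these genes in the comparisons below was not tested.

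The share of clonotypes using each segment was then compared between CD8 and CD4 within libraries, with the quasi-likelihood test of edgeR and a term for the library. Of 130 segments with at least 20 clonotypes, 20 passed a false discovery rate (FDR) of 0.05 (15.4% of those tested). They divided evenly, with 10 higher in CD8 (7.69%) and 10 higher in CD4 (7.69%), and 40 had an unadjusted p under 0.05. By class, 8 of 20 TRBV segments passed (40.0%), 11 of 57 TRAV (19.3%), 1 of 41 TRAJ (2.44%) and 0 of 12 TRBJ (0.0%). With an unadjusted p under 0.05 there were 11 TRBV, 18 TRAV, 8 TRAJ and 3 TRBJ segments by edgeR, and the median absolute log2 difference was 0.91, 0.75, 0.51 and 0.36 in that order. The difference between classes was not tested. All 10 segments called higher in CD8 were higher in CD8 in 3 of 3 libraries, as were 15.4% of all segments tested, and 8 of the 10 called higher in CD4 were higher in CD4 in 3 of 3 libraries, against 22.3% of all. For 15 of the 20 the CD8 and CD4 shares did not overlap, against 26.9% of all segments tested.

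The number of calls depended on the tool, on the libraries kept and on the co-receptor limits, among other choices given at the end. With at least 3 CD8 and 2 Cd4 UMIs, 8 segments were called higher in CD8 and 5 higher in CD4. Called by the Wald test of DESeq2, which estimated a median dispersion of 0.19 where edgeR estimated 0.00803, 4 segments passed (TRBV12-2, TRBV12-1, TRBV29 and TRAV16N), all higher in CD8, and 15 had an unadjusted p under 0.05. That fit used the size factors of DESeq2, and with clonotype numbers as size factors, as in edgeR, the dispersion was 0.171 and TRBV12-2 alone passed (17 with an unadjusted p under 0.05). Without mavrilimumab 2, 97 segments could be tested, 16 of the 20 among them, and 7 passed, all of them among the 20. Without mavrilimumab 1, 101 could be tested, again with 16 of the 20, and 20 passed, 12 of them among the 20. Without vehicle IgG 1, 129 were tested, with all of the 20, and 18 passed, 15 of them among the 20. TRAV12-2, TRAV16N, TRBV12-1, TRBV29 and TRBV31 passed whichever library was left out, and all segments called kept their direction in every one of these fits that tested them. Over all alternatives given at the end, 0 of the 20 were called in every fit that tested them.

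**Figure D1:**
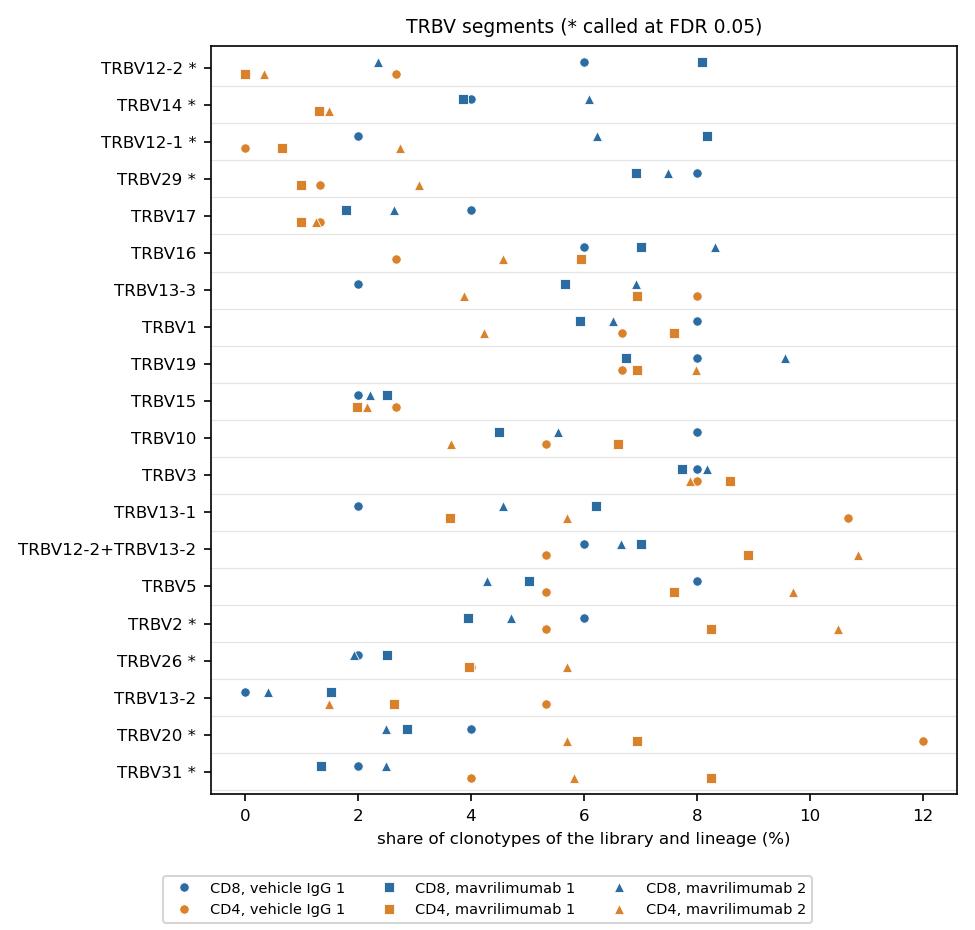
Share of clonotypes (%) using each TRBV segment, ordered by log2 fold difference, with CD8 in blue and CD4 in orange and 1 symbol per TCR library. The CD8 points of TRBV29 lie between 6.92% and 8.00% and its CD4 points between 0.99% and 3.08%, and TRBV31, TRBV20 and TRBV26 show the opposite order with no overlap.

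TRBV12-2 differed most among the segments higher in CD8. It was used by 3 of 50 CD8 clonotypes (6%) in vehicle IgG 1, 90 of 1112 (8.09%, exact 95% interval 6.56 to 9.86) in mavrilimumab 1 and 17 of 722 (2.35%, 1.38 to 3.74) in mavrilimumab 2. Among CD4 clonotypes it was used by 2 of 75 (2.67%), 0 of 303 (exact upper bound 1.21%) and 3 of 876 (0.342%). CD8 was thus higher in each library, although the lowest CD8 share lay under the highest CD4 share, and the log2 fold difference was 3.28 (SE 0.56, FDR = 1.6e-06). Without mavrilimumab 1 the log2 difference of TRBV12-2 was 2.28 (adjusted p = 0.104), and without vehicle IgG 1 or mavrilimumab 2 it was 3.87 or 3.86, still past the threshold. Intervals cover counting error only.

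Its neighbour TRBV12-1 made up 2%, 8.18% and 6.23% of CD8 clonotypes and 0%, 0.66% and 2.74% of CD4 clonotypes in vehicle IgG 1, mavrilimumab 1 and mavrilimumab 2, respectively (log2 difference 1.82, SE 0.40, FDR = 0.000158). TRBV29 stood at 8%, 6.92% and 7.48% in CD8 (7.47% ± 0.538, SD, n = 3) and 1.33%, 0.99% and 3.08% in CD4 (1.8% ± 1.12). Every CD8 share of TRBV29 exceeded every CD4 share, and its log2 difference was 1.72 (SE 0.38, FDR = 0.000158). TRBV14 likewise did not overlap, at 4%, 3.87% and 6.09% in CD8 and 1.33%, 1.32% and 1.48% in CD4 (log2 1.86, SE 0.43, FDR = 0.000423).

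TRBV31, the V segment that lies beyond the constant genes in inverted orientation, was the beta segment most shifted to CD4. It was used by 3 of 75 CD4 clonotypes (4%) in vehicle IgG 1, 25 of 303 (8.25%) in mavrilimumab 1 and 51 of 876 (5.82%) in mavrilimumab 2, against 1 of 50 (2%), 15 of 1112 (1.35%) and 18 of 722 (2.49%) in CD8. The shares did not overlap and the log2 difference was -1.81 (SE 0.38, FDR = 0.000158). TRBV20 made up 12%, 6.93% and 5.71% of CD4 clonotypes and 4%, 2.88% and 2.49% of CD8 clonotypes (log2 -1.26, SE 0.35, FDR = 0.00469), and TRBV26 4%, 3.96% and 5.71% against 2%, 2.52% and 1.94% (log2 -1.13, SE 0.38, FDR = 0.0269). TRBV2 was called higher in CD4 (log2 -1.02, SE 0.32, FDR = 0.0119) although vehicle IgG 1 ran the other way, with 6% in CD8 and 5.33% in CD4. In mavrilimumab 1 and mavrilimumab 2 it rose from 3.96% and 4.71% in CD8 to 8.25% and 10.5% in CD4. The calls of TRBV20, TRBV26 and TRBV2 were lost without vehicle IgG 1 and without mavrilimumab 2, with adjusted p of 0.0527 to 0.519. The log2 differences without these libraries were -1.23 and -1.303 for TRBV20, -1.14 and -0.68 for TRBV26 and -1.11 and -0.93 for TRBV2.

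The mouse alpha locus carries duplicated TRAV copies, marked D or N in their names, which are nearly identical, so that a contig may be assigned to the wrong copy. V segments were therefore also tested as subgroups, the number before the first dash, which do not depend on the copy. Of 32 subgroups of both chains, 8 were higher in CD8 (25.0% of those tested) and 9 higher in CD4 (28.1%), and 15 of the 17 had the same direction in 3 of 3 libraries, as did 59.4% of all subgroups tested. The TRAV subgroups called were TRAV16, TRAV3 and TRAV8, higher in CD8, and TRAV14, TRAV21, TRAV4 and TRAV7, higher in CD4. The other calls were TRBV subgroups, which do not bear on the duplicated TRAV copies. Among them, TRBV16, TRBV17 and TRBV5 passed here (FDR of 0.0421, 0.0323 and 0.0114) but did not pass in the fit of single segments. The count of calls over both chains was 11 without vehicle IgG 1, 11 without mavrilimumab 1 and 9 without mavrilimumab 2. Of the TRAV subgroups described below, TRAV16 and TRAV14 passed without any 1 library, and TRAV21 in both of these fits that tested it. TRAV4 passed only without mavrilimumab 1, and TRAV3 and TRAV7 only without vehicle IgG 1. TRAV8 lost the call without mavrilimumab 1, where its log2 difference was 0.98 (adjusted p = 0.0625). DESeq2 called none (3 with an unadjusted p under 0.05).

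TRAV16 had the smallest p of the subgroups. It was used by 5 of 50 (10%), 113 of 1112 (10.2%) and 91 of 722 (12.6%) CD8 clonotypes and by 2 of 75 (2.67%), 11 of 303 (3.63%) and 23 of 876 (2.63%) CD4 clonotypes in vehicle IgG 1, mavrilimumab 1 and mavrilimumab 2. CD8 was higher in every library with no overlap of the shares, although in vehicle IgG 1 the exact intervals of 3.33 to 21.8 and 0.325 to 9.30 overlapped (10.9% ± 1.46 against 2.97% ± 0.569, SD, n = 3; log2 1.959, SE 0.27, FDR = 5.53e-06). Both of its copies that passed as single segments rose to a like degree, TRAV16 by 2.06 (SE 0.45) and TRAV16N by 2.03 (SE 0.44) on the log2 scale. TRAV8 was higher in CD8 by 1.66 (SE 0.44, FDR = 0.00262), with none of 303 CD4 clonotypes in mavrilimumab 1. TRAV3 made up 8%, 8.09% and 8.17% of CD8 clonotypes and 6.67%, 4.62% and 3.20% of CD4 clonotypes (log2 1.04, SE 0.27, FDR = 0.00212).

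Among single TRAV segments, TRAV12-2 made up 6%, 4.32% and 4.02% of CD8 clonotypes and 2.67%, 0.33% and 1.37% of CD4 clonotypes (log2 1.88, SE 0.45, FDR = 0.000542). The whole TRAV12 subgroup did not pass (log2 0.52, SE 0.23, FDR = 0.0659). TRAV9N-3 (log2 1.73) and TRAV8N-2 (log2 1.82) were also called higher in CD8. The whole TRAV9 subgroup did not pass (log2 0.02, SE 0.23, FDR = 0.955). In the expression libraries described below, its CD8 minus CD4 share was negative in each. By the labels of the expression libraries, that difference was -2.38 percentage points in vehicle IgG 1, -3.64 in vehicle IgG 2, -0.85 in mavrilimumab 1 and -2.39 in mavrilimumab 2. The expression library labelled mavrilimumab 1 joins the TCR library labelled mavrilimumab 2, and the reverse. The only J segment called, TRAJ47, made up 2%, 1.799% and 2.35% of CD8 clonotypes and 0%, 0.99% and 0.685% of CD4 clonotypes, and its call (log2 1.53, SE 0.56, FDR = 0.0473) was lost without any 1 of the 3 libraries.

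**Figure D2:**
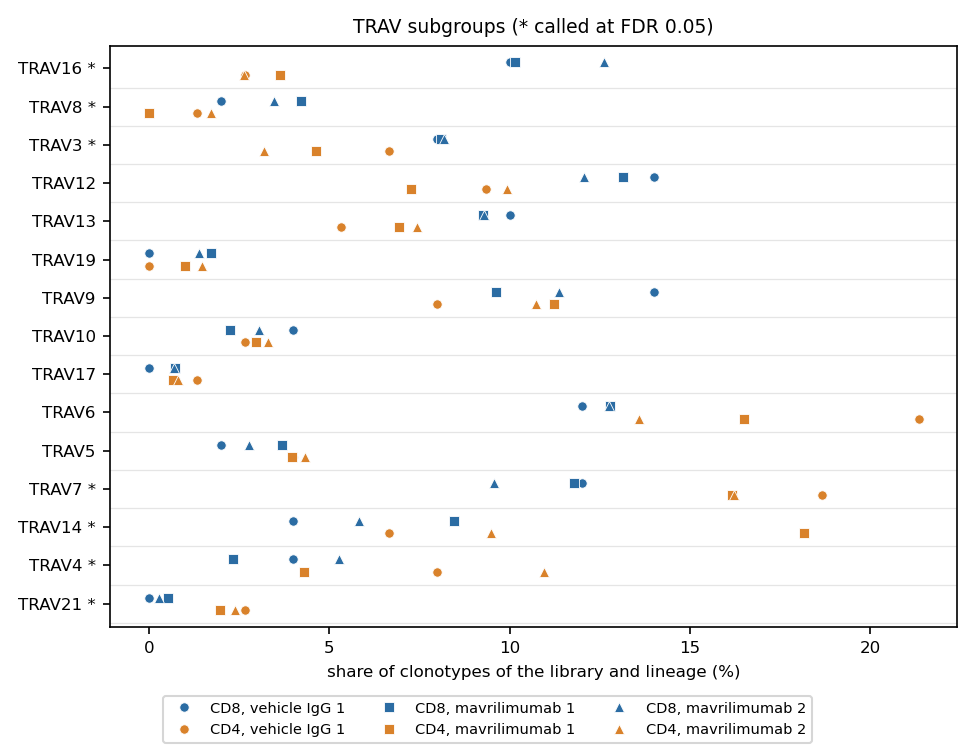
Share of clonotypes (%) using each TRAV subgroup, ordered by log2 fold difference, with CD8 in blue and CD4 in orange and 1 symbol per TCR library. TRAV16 stands at 10.0% to 12.6% in CD8 and 2.63% to 3.63% in CD4, and TRAV7, TRAV14, TRAV4 and TRAV21 lie higher in CD4 in each library.

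On the CD4 side of the alpha chain, TRAV21 was rare but differed most among the subgroups. It was used by 2 of 75 (2.67%), 6 of 303 (1.98%) and 21 of 876 (2.40%) CD4 clonotypes against 0 of 50, 6 of 1112 (0.54%) and 2 of 722 (0.277%) CD8 clonotypes, with no overlap (log2 -2.41, SE 0.50, FDR = 0.000343). TRAV14 made up 6.67%, 18.2% and 9.47% of CD4 clonotypes and 4%, 8.45% and 5.82% of CD8 clonotypes (log2 -0.90, SE 0.23, FDR = 0.00212). CD4 was higher in each library, but its lowest share lay under the highest CD8 share. The exact intervals of CD8 and CD4 overlapped in vehicle IgG 1 (0.488 to 13.7 and 2.20 to 14.9) and mavrilimumab 2 (4.22 to 7.78 and 7.62 to 11.6), not in mavrilimumab 1. TRAV4 made up 8%, 4.29% and 10.96% of CD4 and 4%, 2.34% and 5.26% of CD8 clonotypes (log2 -0.99, SE 0.26, FDR = 0.00213). TRAV7 made up 18.7%, 16.2% and 16.2% of CD4 and 12%, 11.8% and 9.56% of CD8 clonotypes (log2 -0.62, SE 0.22, FDR = 0.0213). Within these families the copies TRAV14D-3-DV8 (log2 -2.91), TRAV14-3 (-1.91) and TRAV4N-4 (-1.86) passed as single segments, as did TRAV7-4 (-1.3), TRAV21-DV12 (-2.40) and TRAV6-5 (-1.92). TRAV6-5 rested on 37 clonotypes and ran the other way in vehicle IgG 1, where 1 of 50 CD8 and 0 of 75 CD4 clonotypes used it. Names with DV mark V segments that delta chains can use as well, since the delta locus lies inside the alpha locus.

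None of the 3 most used segments of each class passed. TRBV3 made up 7.97% ± 0.221 (SD, n = 3) of CD8 and 8.15% ± 0.376 of CD4 clonotypes, a log2 difference of -0.03 (SE 0.30), and TRBV19 8.10% ± 1.41 and 7.20% ± 0.701 (log2 0.15, SE 0.30). The third most used beta entry, for which the contig reference does not separate TRBV12-2 from TRBV13-2, stood at 6.55% ± 0.514 in CD8 and 8.36% ± 2.8 in CD4 (log2 -0.50, SE 0.30, FDR = 0.252). Expression reads resolved it: of 488 cells with this entry and a leading Trbv gene, 474 had Trbv13-2 and 7 had Trbv12-2. Of the alpha segments, TRAV6D-6 stood at 4.04% ± 0.104 in CD8 and 5.01% ± 1.62 in CD4, TRAV7D-2 at 2.17% ± 0.401 and 5.54% ± 2.13, and TRAV3N-3 at 5.22% ± 2.41 and 2.26% ± 0.675. Neither of the last 2 passed, with FDR of 0.0608 and 0.0549. The leading J segments, TRAJ27, TRAJ31 and TRAJ22 in alpha and TRBJ2-7, TRBJ2-5 and TRBJ2-1 in beta, had FDR between 0.110 and 0.831. A p that missed the threshold does not show that these segments were used alike.

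As a description over segments, which share libraries and depth and are not replicates, shares were compared between the 6 columns. Over 22 TRBV segments, Pearson r between the same lineage of different libraries was 0.529 to 0.837, and r between CD8 and CD4 of the same library was 0.152 to 0.454. Over 19 TRAV subgroups the corresponding ranges were 0.844 to 0.960 and 0.731 to 0.783. A column was thus more like the same lineage of another library than like the other lineage of its own library, for V segments of both chains. Over 43 TRAJ segments the ranges overlapped, at 0.296 to 0.815 and 0.376 to 0.675.

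Many T cells also carry a second alpha rearrangement that is out of frame or stopped and encodes no receptor. These nonproductive alpha chains, from the same clonotypes, served as background measured in the same way. Of 61 TRAV and TRAJ segments with at least 20 such clonotypes, edgeR called 0 (0.0%), and 2 had an unadjusted p under 0.05. TRAV12-2, higher in CD8 by 1.88 (SE 0.45) on the log2 scale in productive chains, stood at -0.81 (SE 0.64) in nonproductive chains. The other called segments that could be tested there were TRAV4N-4 at -0.32 (SE 0.72), in the direction of its call, TRAV16N at -0.14 (SE 1.00), TRAV8N-2 at -0.18 (SE 0.72) and TRAV6-5 at 0.29 (SE 0.64), none of which passed. Nonproductive chains were fewer, with the largest segment at 85 clonotypes, so that differences of the sizes above may have been missed in them. What size could be detected there was not tested. In simulated data with the 130 productive segments, the same fit recovered 31.75% of 2-fold and 81.5% of 4-fold changes. The simulation gave each segment the same share in every library. Its fixed dispersion lay between the estimates of edgeR (0.00803) and DESeq2 (0.171). It did not cover the smaller counts of nonproductive chains, so these rates do not carry over to them.

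**Figure D3:**
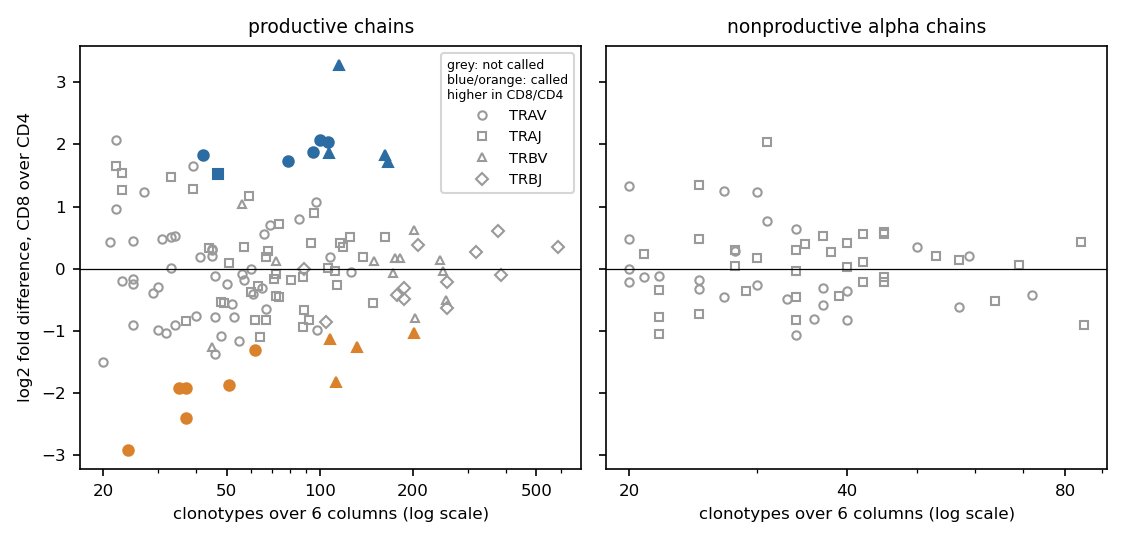
Log2 fold difference (CD8 over CD4) of each segment against its number of clonotypes over 6 columns (log axis), for productive chains on the left and nonproductive alpha chains on the right. The 10 blue and 10 orange points are segments called higher in CD8 and in CD4, all but 1 of them V segments, and no nonproductive segment was called.

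CDR3 length was compared in classes and as a mean. Of 16 length classes of both chains, 2 passed (12.5%), both in the alpha chain. A length of 15 amino acids was found in 18%, 17.4% and 20.8% of CD8 clonotypes and 14.7%, 11.9% and 13.2% of CD4 clonotypes in vehicle IgG 1, mavrilimumab 1 and mavrilimumab 2 (log2 0.60, SE 0.11, FDR = 0.000322). A length of 13 was found in 36%, 26.3% and 22.6% of CD8 and 37.3%, 31.7% and 31.4% of CD4 clonotypes (log2 -0.37, SE 0.10, FDR = 0.00701). Neither passed without any 1 of the libraries, nor with Foxp3-positive CD4 cells left out, with the directions unchanged. The mean alpha length was 13.68, 13.71 and 13.77 amino acids in CD8 and 13.69, 13.55 and 13.58 in CD4, a mean difference of 0.115 ± 0.113 (SD, n = 3; two-sided exact sign-flip permutation p = 0.5, where 3 libraries cannot give less than 0.25). Within TRAJ segments the alpha difference was 0.206, 0.208 and 0.227 in vehicle IgG 1, mavrilimumab 1 and mavrilimumab 2, and within TRAV subgroups -0.108, 0.0684 and 0.0879. Among beta lengths, 13 amino acids stood at 16%, 20.3% and 17.3% in CD8 and 21.3%, 21.5% and 23.2% in CD4 (FDR = 0.0757). The mean beta length differed by 0.0402 ± 0.0838 (exact permutation p = 0.75, n = 3).

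**Figure D4:**
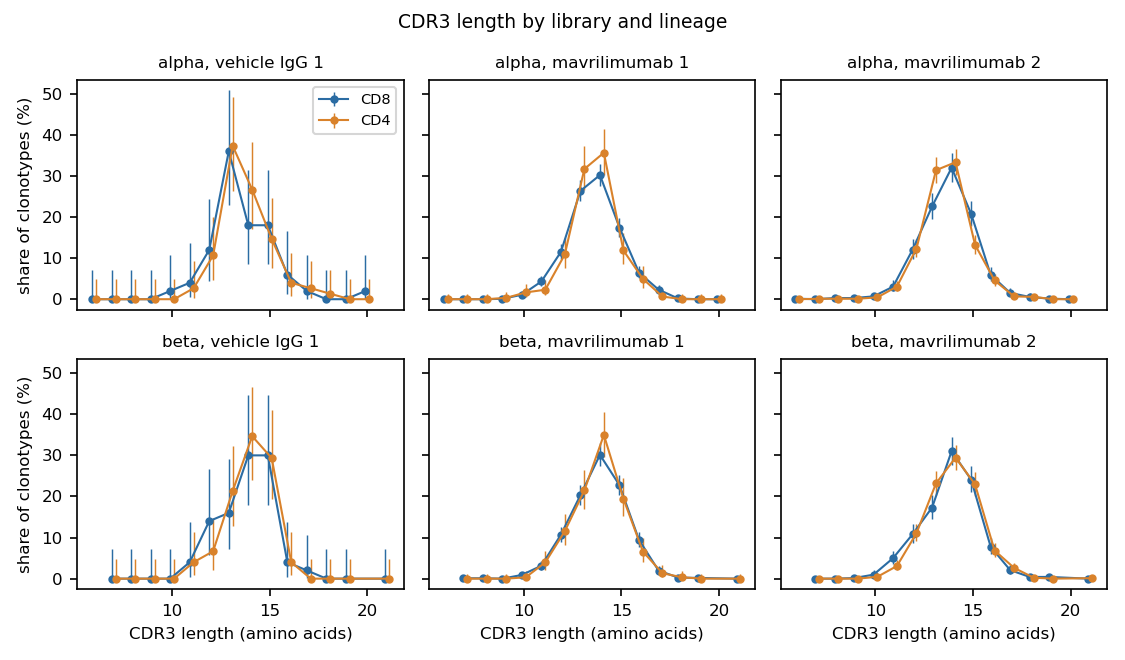
Share of clonotypes (%) at each CDR3 length in amino acids, for the alpha chain (top) and the beta chain (bottom) of each TCR library, with CD8 in blue and CD4 in orange and bars for exact 95% intervals. In the 2 larger libraries the alpha curve of CD4 lies above that of CD8 at 13 and below it at 15 amino acids, and the beta curve of CD4 lies above that of CD8 at 13 amino acids in mavrilimumab 2.

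Other single values were computed for each library, 8 in all with the mean lengths, and none could reach significance with 3 libraries. One of them was the net charge of the alpha CDR3, counting lysine and arginine as positive and aspartate and glutamate as negative. It was 0.5 in CD8 and 0.573 in CD4 in vehicle IgG 1, 0.428 and 0.828 in mavrilimumab 1, and 0.504 and 0.805 in mavrilimumab 2, and thus lower in CD8 in 3 of 3 libraries (exact permutation p = 0.25, n = 3, the smallest possible, and 0.667 after Benjamini-Hochberg adjustment over the 8). The differences in the 2 larger libraries, -0.4003 (95% interval -0.505 to -0.295 over clonotypes) and -0.301 (-0.387 to -0.214), remained within TRAV subgroups at -0.363 and -0.311, and were -0.197 and -0.189 within TRAJ segments. The beta CDR3 differed in charge by 0.0426 ± 0.204 (SD, n = 3) with mixed signs. Kyte-Doolittle hydropathy differed by -0.0642 ± 0.0902 in alpha and 0.0108 ± 0.0449 in beta. In alpha it was also lower in CD8 in 3 of 3 libraries (exact permutation p = 0.25, n = 3). The share of the second TRBJ cluster was 66.7% in CD8 and 64.3% in CD4, a difference of 2.39 ± 2.65 percentage points (5.33, 0.179 and 1.66 by library; exact permutation p = 0.25, n = 3) that became -0.692 with each cell counted. TRAJ segments are numbered from the constant gene outwards, and the mean TRAJ number was 30.6 in CD8 and 31.3 in CD4 (exact permutation p = 0.5, n = 3). Contigs named TRBC1 for nearly all cells of both TRBJ clusters, and constant gene use was therefore not compared.

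V gene use can also be read from the 5′ expression libraries, including the expression library labelled vehicle IgG 2, which no analysed TCR library joins. Cells with at least 500 UMIs, a Cd3 UMI and the same lineage rule were given the Trbv gene with the most UMIs. In paired cells this gene was the contig's TRBV in 93.2% to 95.1%, and the leading Trav gene fell in the contig's subgroup in 73.3% to 79.6%. Here cells rather than clonotypes are counted, so that expanded clones weigh more, and no test was made.

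In vehicle IgG 2, TRBV29 led in 134 of 1710 CD8 cells (7.84%, exact 95% interval 6.61 to 9.21) and in 0 of 122 CD4 cells (upper bound 2.98). TRBV12-2 led in 109 CD8 cells (6.37%) and 1 CD4 cell (0.820%), TRBV12-1 in 103 (6.02%) and 0, and TRBV14 in 67 (3.92%) and 1. In the other direction, TRBV31 led in 45 CD8 cells (2.63%, 1.93 to 3.51) and 9 CD4 cells (7.38%, 3.43 to 13.5), TRBV20 in 33 (1.93%) and 9 (7.38%), and TRBV26 in 66 (3.86%) and 10 (8.20%). All 8 called TRBV segments thus had the same direction in vehicle IgG 2 as in the contigs, as did 77.8% of the 18 TRBV segments tested in contigs that led in any expression cell. The intervals of TRBV2 (2.11% and 3.28%), TRBV14, TRBV26 and TRBV31 overlapped between lineages. All intervals from expression treat cells of 1 clone as separate and are too narrow where clones are expanded. Vehicle IgG 2 has no clonotypes here, so intervals that did not overlap are no test of a difference. Over all 4 expression libraries, 7 of the 8 had 1 direction throughout, against 44.4% of those 18, and TRBV2 was the exception in vehicle IgG 1. The other 3 libraries hold the cells from which the segments were called, so that only vehicle IgG 2 was not used for the calls. Vehicle IgG 2 had 38317 barcodes with at least 500 UMIs, against 1411 to 7175 in the others. Its median depth was 2658.5 UMIs in CD8 and 1994.5 in CD4 cells. Whether its mice and clones are separate from those of the other libraries was not tested. TRBV13-2, left unresolved in most contigs, was lower in CD8 in 4 of 4 libraries, at 5.83% to 7.62% of CD8 and 9.82% to 17.2% of CD4 cells. Of the alpha subgroups, TRAV14 was higher in CD4 and TRAV16 higher in CD8 in 4 of 4 libraries. A leading Trav gene was found in 1053 CD8 and 74 CD4 cells of vehicle IgG 2. There, TRAV16 led in 81 CD8 cells (7.69%, 6.16 to 9.47) and only 5 CD4 cells (6.76%, 2.23 to 15.1), so that the intervals overlapped. TRAV21 was higher in CD4 and TRAV8 higher in CD8 in 4 of 4. TRAV9, which was not called, and TRAV1, too rare to be tested, were also lower in CD8 in 4 of 4. The share of all TRAV subgroups with 1 direction throughout was not computed. TRAV4, TRAV7 and TRAV3 did not keep their direction throughout. In vehicle IgG 2, TRAV4 stood at 6.36% in CD8 and 4.05% in CD4 and TRAV7 at 8.07% and 4.05%, opposite to their calls from contigs, and in vehicle IgG 1 TRAV7 stood at 13.7% and 12.5% and TRAV3 at 0% and 4.55%.

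**Figure D5:**
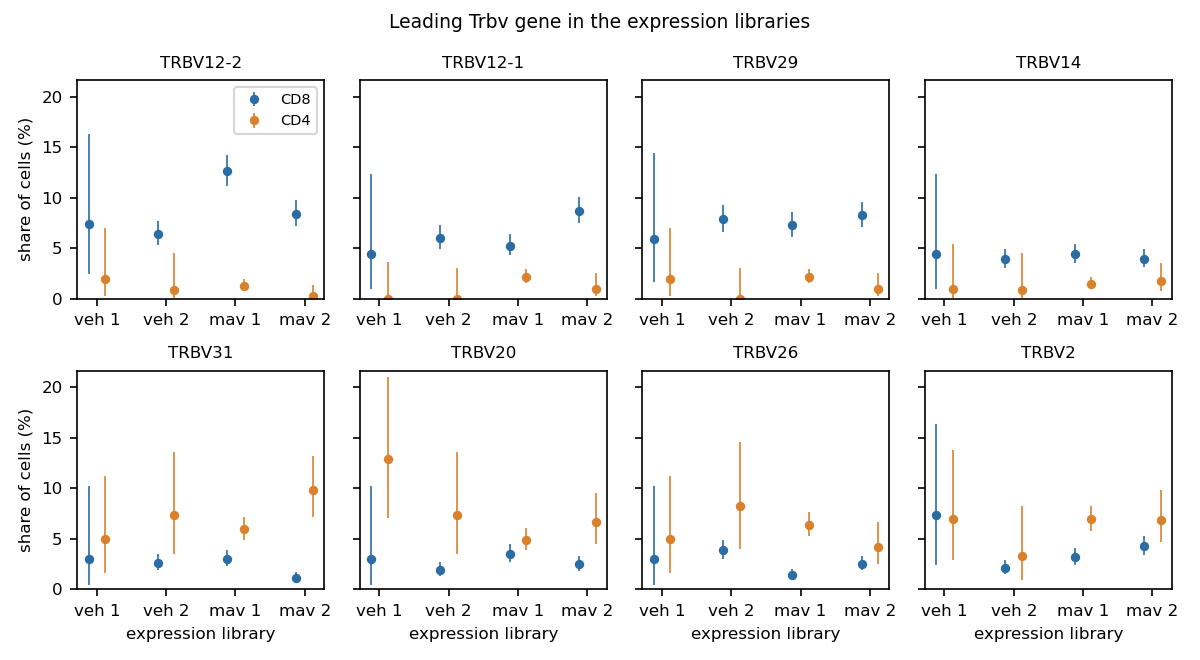
Share of CD8 (blue) and CD4 (orange) cells (%) whose leading Trbv gene in the expression matrix is the named segment, in each of the 4 expression libraries under its own label (veh, vehicle IgG; mav, mavrilimumab), with exact 95% intervals. The upper row holds segments called higher in CD8 from contigs and the lower row those called higher in CD4, and the order is the same in all libraries except for TRBV2 in vehicle IgG 1.

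Invariant alpha chains were counted separately, since they mark T cells that see neither classical MHC class. The pair TRAV11 and TRAJ18 of invariant natural killer T cells was seen in 0 CD8 clonotypes and in 0 of 75, 1 of 303 and 6 of 876 CD4 clonotypes. The pair TRAV1 and TRAJ33 of mucosal-associated invariant T cells was seen in 2 CD8 clonotypes of mavrilimumab 1 and 1 CD4 clonotype of mavrilimumab 2. As single segments, TRAV11 (9 clonotypes) and TRAV1 (15) were too rare to be tested, and TRAJ18 and TRAJ33 had FDR of 0.829 and 0.498.

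Only clonotypes of more than 1 cell can hold both lineages. They numbered 2, 140 and 177 in CD8 and 0, 8 and 150 in CD4 in vehicle IgG 1, mavrilimumab 1 and mavrilimumab 2. Only 3 clonotypes, all in mavrilimumab 2, held cells of both lineages. A clonotype was counted in at most 1 lineage, so that these 3 could not add to the following counts of shared chains. Between CD8 and CD4 clonotypes of the same library, identical amino acid beta chains were found 0 times in each library, and identical alpha chains 0, 5 and 3 times in vehicle IgG 1, mavrilimumab 1 and mavrilimumab 2. Sharing was also low within a lineage. CD8 clonotypes of mavrilimumab 1 and mavrilimumab 2 shared 3 beta and 25 alpha chains, and their CD4 clonotypes 1 and 3. Whether sharing is lower between lineages than within them was not tested. Clonotypes of more than 1 cell were 4%, 12.6% and 24.5% of CD8 and 0%, 2.64% and 17.1% of CD4 clonotypes in that order. The largest clone, of 155 CD8 cells in mavrilimumab 2 (10.4% of its CD8 cells), combined TRAV16 and TRAJ57 with TRBV12-2 and TRBJ1-1, the V segments with the largest log2 difference toward CD8 among those called in each chain. With each cell counted instead of each clonotype, 7 segments were called in place of 20, of which 6 were among the 20. Among CD8 clonotypes, 14 joined TRBV12-2 with a TRAV16 segment, where the product of the separate shares within libraries gives 11.6.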

How the data were processed

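The deposited expression matrices hold UMI counts that the authors made with Cell Ranger (the submitters' notes name versions 7 and 7.1.0, Scanpy 1.8.2 and build mm10, and the matrix headers Cell Ranger 9.0.1), and the deposited contig files hold UMI counts per assembled chain. Cell calls, chain productivity, segment names and CDR3 were taken from the contig files as deposited. Barcodes with at least 500 UMIs were read as expression cells when libraries were joined and when V use was read from expression. Cells of the TCR libraries were given a lineage without this minimum. The members, lists and limits were chosen with earlier results of these data known.

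Clonotypes per segment formed 6 columns (CD8 and CD4 of 3 TCR libraries). Segments with at least 20 clonotypes were fitted together with edgeR 4.0.16 (R 4.3.3) by the quasi-likelihood test, with the number of clonotypes as library size, a library term and Benjamini-Hochberg adjustment. CD8 and CD4 columns are paired because they come from the same library. The library is the replicate. Tumours were pooled within a group and nothing ties mice to libraries, so that p-values do not measure the spread between mice. The p-values of edgeR combine the counting error of clonotypes with the spread between libraries. At a median dispersion of 0.00803 they rest to a large part on counting error. Single values were tested with exact sign-flip permutation. Charge and hydropathy were added after the design was written. Alternatives used DESeq2 1.42.0, limma 3.58.1 and other filters. The fit was tested on simulated data.

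Named segments were those past FDR 0.05, up to 10 in each direction by log2 fold difference, the 3 most used of each class, TRAV11, TRAJ18, TRAV1 and TRAJ33, and up to 10 subgroups. The subgroups TRAV4, TRAV8, TRAV7, TRAV9 and TRAV12 and the entry TRBV13-2 were named after their values were seen. Doublets were not called, and cells positive for both co-receptors were left out. Intervals of shares are exact (Clopper-Pearson) at 95% and cover counting error only. In the expression libraries they are taken over cells, without regard to clones. Those of the net charge differences are normal 95% intervals from the spread over clonotypes and leave out the spread between libraries. 1 marker list is not reported here.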

Additional observations from a re-analysis of the deposited data

Results flagged for a closer look

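Several CD8 minus CD4 differences had 1 sign in vehicle IgG 1 and the opposite sign in both libraries labelled mavrilimumab. Those below are listed because they show this pattern. The share of all segments and values that show it is not given here, so that the list says nothing about treatment. The difference between treatments was not tested, vehicle IgG 1 holds 50 CD8 and 75 CD4 clonotypes, and the names inside the files go against the labels. In the order vehicle IgG 1, mavrilimumab 1 and mavrilimumab 2, mean CDR3 length differed by -0.0133, 0.159 and 0.199 amino acids in alpha and by -0.0267, 0.134 and 0.0130 in beta. The mean TRAJ number differed by 0.0467, -0.643 and -1.67. The net charge of the beta CDR3 differed by 0.273, -0.116 and -0.0295, and its hydropathy by -0.0408, 0.0323 and 0.0408.

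In percentage points of clonotypes and in the same order, TRAV6-5 differed by 2, -3.001 and -1.04, TRBV2 by 0.667, -4.29 and -5.79, and TRAJ27 by 7.33, -0.933 and -1.40. TRAJ22 differed by -2, 2.57 and 1.59, TRBJ2-7 by -2, 5.74 and 4.76, and the joint entry of TRBV12-2 and TRBV13-2 by 0.667, -1.90 and -4.20.

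Outside both lineages, the invariant pair of TRAV11 and TRAJ18 was present in 140 clonotypes, and that of TRAV1 and TRAJ33 in 17, against 7 and 3 within the lineages. Among paired cells with neither co-receptor, TRAV11 with TRAJ18 made up 5 of 10 in vehicle IgG 1, 31 of 161 (19.3%) in mavrilimumab 1 and 101 of 963 (10.5%) in mavrilimumab 2.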

How the results depend on the processing

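Of 459 alternative values for the 20 segments called, 366 kept direction and call, 93 lost the call and 0 changed direction. Of 372 for the 17 subgroups called, 298 kept both, 73 lost the call and 1 changed direction, TRBV16, which went from 0.63 to -0.129 with each cell counted, where 6 and 8 subgroups passed. The 10 segments higher in CD8 and 10 higher in CD4 became 4 and 0 with DESeq2, 1 and 0 with DESeq2 and clonotype numbers as size factors, 18 and 21 with a conditional exact test stratified by library, 6 and 1 with each cell counted, and 8 and 5 with at least 3 CD8 and 2 Cd4 UMIs. Leaving out 1 library gave 6 to 11 and 1 to 10. Pairing within libraries was tested by dropping the library block, which gave 12 and 15 segments, 8 and 8 subgroups and 2 and 1 lengths. The 8 and 9 subgroups became 0 and 0 with DESeq2 under either set of size factors (3 and 4 with an unadjusted p under 0.05), and 5 to 6 and 4 to 6 without 1 library. The 1 and 1 CDR3 lengths became 0 and 0 without Foxp3-positive cells, with each cell counted, with no filter on low counts and without any 1 library, 1 and 2 with DESeq2, with TMM and with clonotypes of 1 cell, and 2 and 0 with limma-voom. The cause of these changes was not tested. Without receptors found in 2 libraries, 9 and 11 segments passed. That fit, the DESeq2 size factors, limma-voom, separate chains and the differences within segments were chosen after seeing the data.

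Segments near 0 that were not called also changed sign, all below the threshold. The log2 difference of TRAV6D-6 became 0.0724 without Foxp3-positive cells, 0.0708 with TMM, 0.0485 with at least 3 UMIs per chain and -0.378 to 0.18 without 1 library. TRBV3 became 0.034 with DESeq2, 0.0927 with TMM, 0.0222 with clonotypes of 1 cell and -0.129 to 0.0491 without 1 library. TRBJ2-5 became 0.0836 with DESeq2, 0.0285 with clonotype size factors, 0.0362 with TMM, 0.0676 with clonotypes of 1 cell and -0.353 to 0.152 without 1 library. TRBV19 became -0.0108 with the stricter co-receptor limits, and TRAJ18 became 0.311 and TRAJ33 -0.27 with each cell counted. Without 1 library, TRAJ27 ranged from -0.496 to 0.0314 and TRAJ18 from -0.502 to 0.453, both highest without mavrilimumab 2. The beta length difference became -0.0400 with each cell counted and -0.00686 to 0.0736 without 1 library, and the difference in TRBJ2 share became -0.692 with each cell counted. Without 1 library, the beta charge difference ranged from -0.0727 (without vehicle IgG 1) to 0.122 and that in beta hydropathy from -0.00424 (without mavrilimumab 2) to 0.0365, with -3.85e-05 without mavrilimumab 1. Vehicle IgG 1, with 50 CD8 and 75 CD4 clonotypes, limits what its shares can show.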
